A study of Mus musculus with 21 samples.

Results

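The motor genes are the 68 rows, of 48474 in the deposited count table, whose symbols name a kinesin heavy chain (Kif or Kifc), a kinesin light chain (Klc), a chain of cytoplasmic dynein (Dync or Dynl) or a numbered subunit of dynactin (Dctn1 to Dctn6). Rows that repeat a symbol with a copy suffix were left out of the members, which removed 7 rows. Of the 68 members, 61 had enough reads to be tested. The other 7 were Kif2b, listed at 0 in every mouse, and Kif12, Kif14, Kif15, Kif18b, Kif28 and Kif2c, with between 2 and 126 reads over all mice.

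Kinesins and cytoplasmic dynein use ATP to walk along microtubules. In an axon most kinesins carry organelles, vesicles and RNA granules toward the synapse, and dynein carries endosomes, autophagosomes and trophic signals back to the cell body. Kinesin-1 is built from a dimer of heavy chains (Kif5a, Kif5b or Kif5c) and a pair of light chains that bind cargo. Dynein-1 is built on the heavy chain Dync1h1 with intermediate, light intermediate and light chains, and dynactin is the large complex that makes it processive. Mutations in KIF5A and DCTN1 are known causes of motor neuron disease.

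Bulk RNAseq was done on the neocortex of 21 mice, 11 labelled WT and 10 labelled TG. TG mice were bigenic rNLS8 animals, in which a NEFH-tTA driver, active in neurons, turns on a tetO-hTDP-43ΔNLS transgene that encodes human TDP-43 with a defective nuclear localization signal. WT mice were littermate controls that the series' design calls monogenic, so a control may carry a single transgene, and the labels do not say which. At an age of 17 to 19 weeks, every mouse of either genotype received a non-targeting ASO (350 µg in 10 µL) by intracerebroventricular injection. All stayed on a diet with 200 mg/kg doxycycline, which keeps the transgene off, for 2 more weeks and were killed after 3 weeks without it. Batch A held 4 WT and 3 TG mice and batch B held 7 WT and 7 TG mice, and the labels give no sex. The labels name neocortex for every mouse and the study's methods brain cortex, but a figure legend of the study gives hippocampus for rNLS8 mice. Single mice are named by their genotype and library name, as in TG T61340.

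Total counts per mouse were between 20700912 and 22263809, and a floor of 3 counts lay at 0.135 to 0.145 CPM, a count relative to its library's total. Values by mouse are normalized counts, scaled to the mean effective library size by TMM, and fold changes are log2 differences of TG from WT with batch in the model. The transgene is human and the reads were aligned to mouse, so counts of the mouse gene Tardbp can hold only part of its reads. Tardbp had between 2253 and 2827 normalized counts in WT mice and between 2363 and 5053 in TG mice. Its log2 fold change was 0.62 (SE 0.071, edgeR adjusted p = 1.50e-07). That value was 0.26 in batch A alone (adjusted p = 0.191) and 0.79 in batch B alone (adjusted p = 1.42e-10), and edgeR's test of that difference gave an unadjusted p of 7.31e-06 (adjusted p = 0.133). In 9 TG mice the value was above every WT mouse, and in the library labelled TG T61340 it was 2363, within the WT range. That library also had the lowest median rank correlation with its own group (0.983), followed by TG T60303 (0.9867), and both are from batch A. These correlations pooled the batches, of which batch A held fewer mice, and WT T61334 of batch A followed closely (0.9872). The counts of calls, the paralog ratios and the members described in full are also given without TG T61340 and TG T60303. Tardbp was then higher by 0.71 (adjusted p = 2.12e-09). Among markers of neocortex, Tbr1 had between 2251 and 2899 normalized counts in WT and between 2108 and 2995 in TG mice, and Cux2 had between 1785 and 2595 and between 1386 and 2263. Neurod6 had between 863 and 1494 in WT and between 776 and 1131 in TG mice. The dentate gyrus markers Prox1 and Dsp summed to 11.9 to 29.6 CPM in WT and 9.31 to 25.1 in TG mice.

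At an adjusted p-value under 0.05 (edgeR's quasi-likelihood test, Benjamini-Hochberg adjustment over 18248 genes), 22 of the 61 motor genes differed between genotypes, 10 higher and 12 lower in TG mice. As a share this was 36.1% of the motor genes, beside 44.7% of all genes tested. The same 44.7% stands beside each count of calls in a motor family below. By direction, 16.4% of the motor genes were higher and 19.7% were lower, beside 23% and 21.7% of all genes. The median log2 fold change was 0.00 over the motor genes and -0.00 over all genes. The called members lay on both sides of 0. Called members were Kif5b, Klc2, Klc4, Kif18a, Kif19a, Kif20b, Dynlt1b, Dynlt1f, Dctn4 and Dctn6, which were higher, and Kif5c, Klc1, Kif3c, Kif2a, Kifc1, Kifc2, Dync1i1, Dync1li2, Dync2li1, Dynll1, Dynll2 and Dynlt3, which were lower. WT and TG mice did not overlap for 4 members, namely Kif5c, Klc1, Dynll2 and Kif20b, which is 6.56% beside 7.65% of all genes. A size of at least 0.25 on the log2 scale and a mean of at least 50 normalized counts were passed by 14 called members, or 23% beside 24.9% of all genes. Scaled by library size alone, 28 motor genes were called, 19 higher and 9 lower, since that scaling moved the median over all genes from -0.00 to 0.08. The share called was then 45.9% (31.1% higher and 14.8% lower) beside 47% of all genes (32% and 15.1%). Without TG T61340 and TG T60303, 24 were called, 10 higher and 14 lower, or 39.3% beside 41.7% of all genes.

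**Figure D1:**
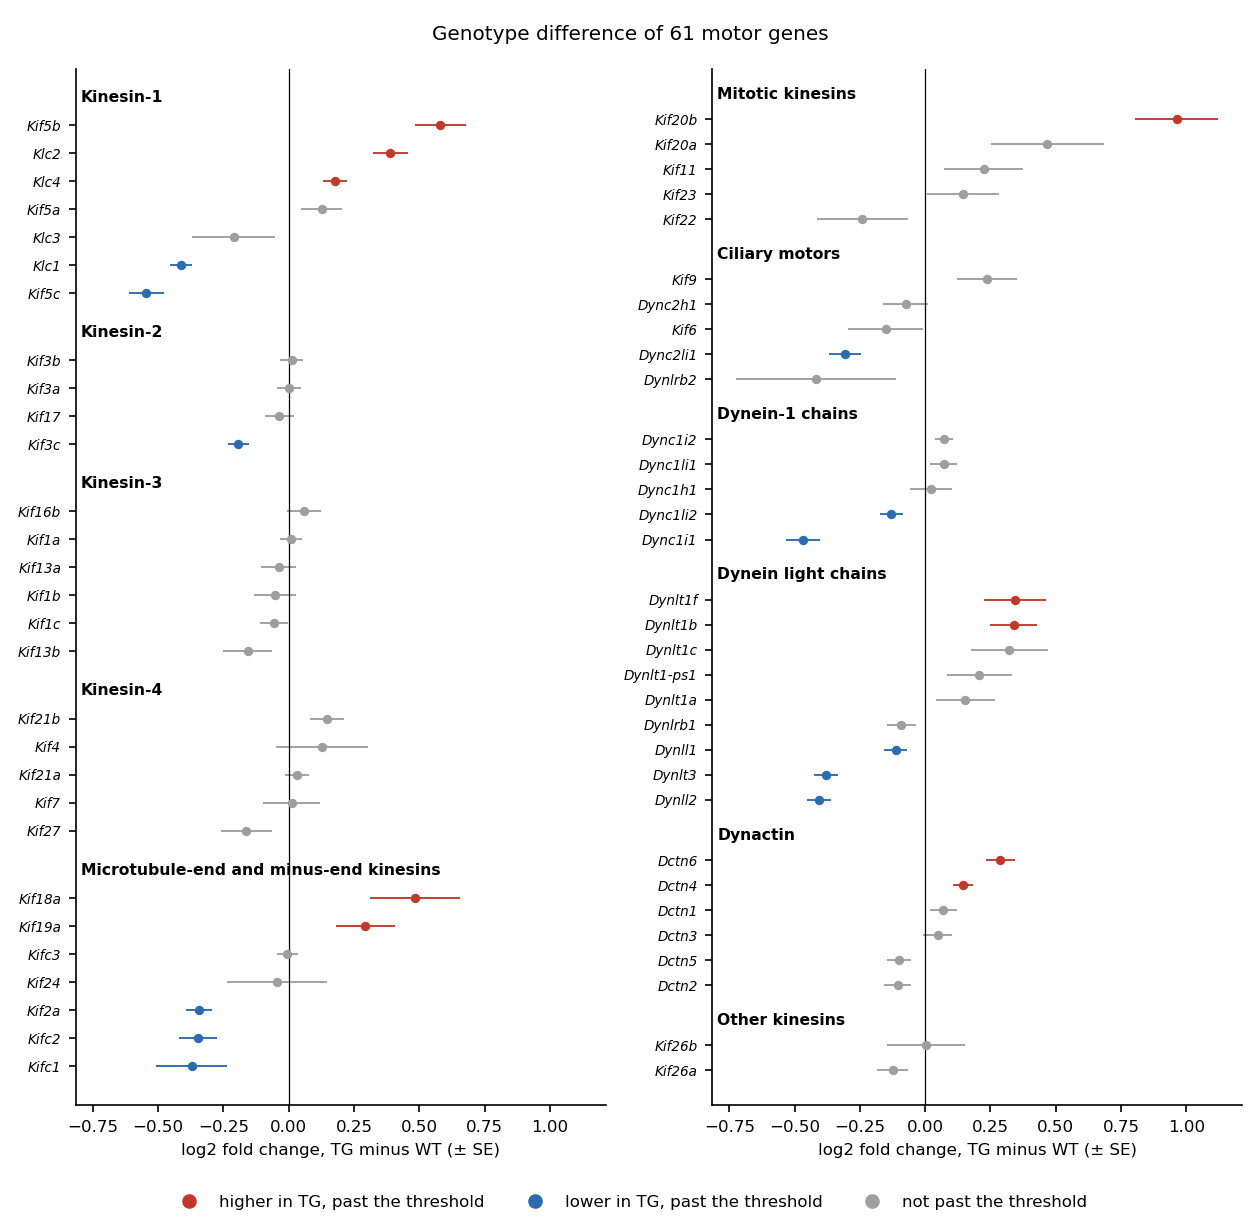
Log2 fold change of TG from WT mice (x axis, log2 scale) for each of the 61 motor genes tested, with bars for the standard error, in blocks by the role of the protein; a gene with more than 1 role is drawn in the first of its blocks. Red and blue points passed the threshold as higher and lower. Kinesin-1 held called genes on both sides of 0, from Kif5c at -0.54 to Kif5b at 0.58, and kinesin-3 and kinesin-4 held none.

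Kinesin-1 had 5 of 7 members called, where 44.7% of all genes were called, and its heavy chains Kif5b and Kif5c moved in opposite directions. Kif5c, a heavy chain enriched in neurons, fell by 31.5%, and Kif5b, the heavy chain that cells of most tissues make, rose 1.5-fold. Kif5a, the neuronal heavy chain with the most reads of all motor genes, did not pass the test. Normalized counts of Kif5c (chr2:49619298-49774778, + strand, GRCm38) were between 21704 and 27858 in WT mice with a median of 24240, and between 12107 and 19918 in TG mice with a median of 16841. All 10 TG mice were below every WT mouse, and the lowest was the library labelled TG T61340. TG mice differed by -0.54 (SE 0.066, adjusted p = 3.10e-07), -0.66 in batch A alone, -0.49 in batch B alone and -0.48 without TG T61340 and TG T60303.

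Promoter sequences of motor genes that differed between genotypes are shown as context for those levels, taken from RefSeq (GRCm38.p6) as 250 bases before to 50 after the annotated start. A window was found for 50 of the 68 members, 57 windows in all, among 32851 windows of all genes. Of 5 motifs searched, 2 are in capitals wherever either strand holds them. The GC box is GGGCGG, which reads CCGCCC where it lies on the other strand, and the cAMP response element, bound by the CREB family, is the palindrome TGACGTCA. Kif5c and Klc1, the lower of the kinesin-1 chains, and Kif18a are shown because their windows hold both, and Dync1i1, the dynein chain that fell most, because it holds neither.
Kif5c promoter, chr2:49619036-49619335, + strand: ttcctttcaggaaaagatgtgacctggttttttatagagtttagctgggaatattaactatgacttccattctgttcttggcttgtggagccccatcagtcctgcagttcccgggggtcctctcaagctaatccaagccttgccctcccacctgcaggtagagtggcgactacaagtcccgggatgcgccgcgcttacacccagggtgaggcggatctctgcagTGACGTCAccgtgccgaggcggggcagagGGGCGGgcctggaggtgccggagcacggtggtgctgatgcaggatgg
Klc1 promoter, chr12:111758618-111758917, + strand: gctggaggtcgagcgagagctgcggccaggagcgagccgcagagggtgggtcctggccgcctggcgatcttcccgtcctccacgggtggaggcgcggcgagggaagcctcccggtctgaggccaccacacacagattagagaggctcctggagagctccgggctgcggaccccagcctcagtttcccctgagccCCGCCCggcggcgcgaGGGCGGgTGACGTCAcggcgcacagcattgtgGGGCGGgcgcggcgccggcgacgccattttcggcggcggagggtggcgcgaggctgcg
Kif18a promoter, chr2:109280488-109280787, + strand: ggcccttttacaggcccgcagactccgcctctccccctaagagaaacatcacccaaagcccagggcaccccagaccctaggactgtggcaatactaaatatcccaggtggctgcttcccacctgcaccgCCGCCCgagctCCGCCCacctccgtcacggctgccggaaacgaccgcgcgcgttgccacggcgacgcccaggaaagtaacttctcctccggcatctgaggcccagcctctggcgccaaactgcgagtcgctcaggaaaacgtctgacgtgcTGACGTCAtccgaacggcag
Dync1i1 promoter, chr6:5725389-5725688, + strand: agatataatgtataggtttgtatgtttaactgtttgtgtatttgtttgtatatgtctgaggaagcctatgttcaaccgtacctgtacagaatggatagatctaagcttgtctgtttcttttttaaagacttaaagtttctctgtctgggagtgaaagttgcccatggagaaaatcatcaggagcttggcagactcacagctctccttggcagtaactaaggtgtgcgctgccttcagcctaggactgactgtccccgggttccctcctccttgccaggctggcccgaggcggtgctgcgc
The cAMP response element was in 5 of the 57 windows, those of Dctn3, Kif17, Kif18a, Kif5c and Klc1, which is 8.77% beside 1.79% of all windows. Of these 5 genes, Kif5c and Klc1 were lower, Kif18a was higher and Dctn3 and Kif17 did not pass the test. The GC box was in 66.7% of the windows of motor genes and 35.7% of all windows. Of 3 other motifs searched on both strands, the CCAAT box (CCAAT) was in 43.9% beside 37.4%, the TATA box (TATAAA) in 8.77% beside 13.6% and the NRF1 core in 1.75% beside 0.971%. The median GC content was 61% in the windows of motor genes and 52.7% in all windows. A match to these letters was not tested as a binding site.

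Of the kinesin-1 heavy chains, Kif5b had between 5855 and 7793 normalized counts in WT mice with a median of 6168, and between 5787 and 12597 in TG mice with a median of 10284.5. In 8 TG mice the value was above every WT mouse, in TG T_69526 it was within the WT range, and in the library labelled TG T61340 it was below every WT mouse. The log2 fold change of Kif5b was 0.58 (SE 0.097, adjusted p = 2.71e-05), 0.43 in batch A, 0.66 in batch B and 0.62 without TG T61340 and TG T60303. Kif5a had between 71265 and 115686 normalized counts in WT mice and between 73471 and 117054 in TG mice, with medians of 86679 and 98411.5, and the groups overlapped almost completely. The fold change was 0.13 (SE 0.080, adjusted p = 0.209), and only scaling by library size alone brought it past the threshold (0.21, adjusted p = 0.0414). Without TG T61340 and TG T60303 it was 0.087 (adjusted p = 0.463).

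Levels of different genes were compared per kilobase of exon. Among the kinesin-1 heavy chains of WT mice, Kif5a made up 74.6% ± 1.48, Kif5c 20.5% ± 1.15 and Kif5b 4.84% ± 0.407 (SD, n = 11). In TG mice the shares were 79.0% ± 2.90, 13.9% ± 2.09 and 7.10% ± 1.11 (SD, n = 10). The share of Kif5c was lower in all 10 TG mice than in any WT mouse, and that of Kif5b was higher in 9. Summed over the 3 genes, the level was 789 ± 96.8 CPM per kilobase in WT and 808 ± 99.1 in TG mice, with 1 TG mouse below the WT range and none above it. The shares of the heavy chains differed between genotypes while their summed level overlapped.

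**Figure D2:**
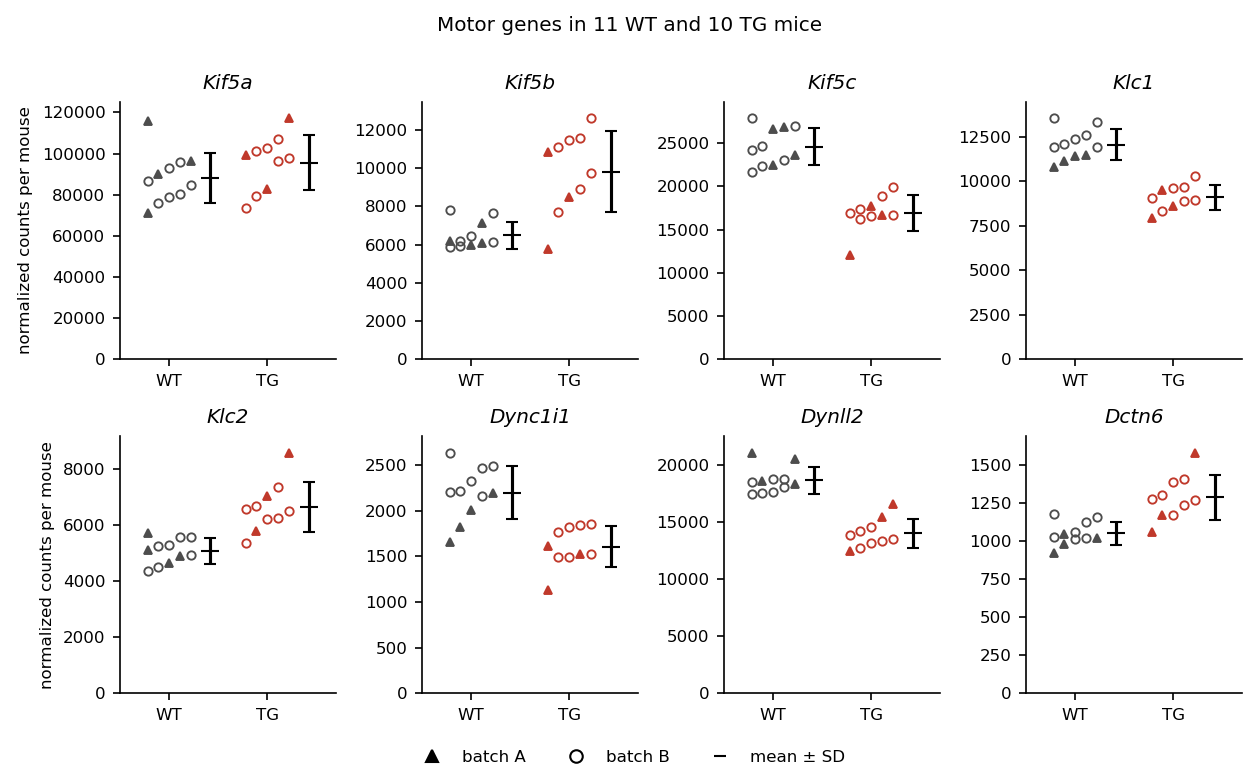
Normalized counts per mouse (y axis from 0, linear) of 8 motor genes in WT (grey) and TG (red) mice, with filled triangles for batch A, open circles for batch B, and the mean with its SD as a black bar. Kif5c, Klc1 and Dynll2 show no overlap between genotypes, Kif5a overlaps, and a single TG triangle lies low for Kif5b at 5787.

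The kinesin light chains, which recruit cargo to the heavy chains, split in the same way, with Klc1 lower and Klc2 and Klc4 higher. Klc1, the main neuronal light chain, had between 10771 and 13517 normalized counts in WT mice (median 11917) and between 7951 and 10271 in TG mice (median 9014). No TG mouse reached the WT range. This amounted to a log2 fold change of -0.41 (SE 0.042, adjusted p = 2.20e-08), -0.34 in batch A, -0.45 in batch B and -0.43 without TG T61340 and TG T60303. Klc2 (chr19:5107746-5118560, - strand) had between 4358 and 5719 normalized counts in WT mice (median 5114.5) and between 5365 and 8584 in TG mice (median 6545), and 9 TG mice were above every WT mouse. It differed by 0.39 (SE 0.066, adjusted p = 3.69e-05), 0.51 in batch A, 0.33 in batch B and 0.37 without both mice.

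Klc4 was higher by 0.18 (adjusted p = 0.00330), with 7 TG mice above the WT range, and Klc3, present at a mean of 46.1 normalized counts in WT mice, gave -0.21 (adjusted p = 0.302). Per kilobase, Klc1 made up 67.7% ± 1.93 of the light chains in WT (SD, n = 11) and 55.3% ± 2.46 in TG mice (SD, n = 10), without overlap. Klc2 made up 28.1% ± 1.91 and 39.6% ± 2.47, also without overlap. The summed light chain level was 205 ± 12.6 and 189 ± 16.0 CPM per kilobase, and 4 TG mice were below the WT range.

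For the dynein-1 chains, which form the motor that moves cargo toward the cell body, 2 of 5 were called and both were lower. Dync1i1, the intermediate chain found mainly in neurons (chr6:5725639-6028039, + strand), had between 1660 and 2634 normalized counts in WT mice (median 2200) and between 1127 and 1852 in TG mice (median 1571). With the batches pooled, 6 TG mice were below every WT mouse, the other 4 lay within the WT range, and TG T60303 was the lowest. Within batch A (TG 1127 to 1618, WT 1660 to 2194) and within batch B (TG 1490 to 1852, WT 2156 to 2634) the groups did not overlap. The difference was -0.47 (SE 0.065, adjusted p = 2.58e-06), -0.41 in batch A, -0.49 in batch B and -0.46 without TG T61340 and TG T60303.

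Dync1i2, the intermediate chain that most cell types make, had medians of 1658 normalized counts in WT and 1788 in TG mice (log2 fold change 0.07, adjusted p = 0.0846). The share of Dync1i1 among the intermediate chains per kilobase was 75.7% ± 1.77 in WT (SD, n = 11) and 68.1% ± 3.23 in TG mice (SD, n = 10), lower than any WT mouse in 9. The exons used came to 3572 bases for Dync1i1 and 8280 for Dync1i2, beside 2718 and 2631 in their longest coding transcripts. With transcript lengths the share of Dync1i1 would be lower in both genotypes. The heavy chain Dync1h1 had between 7944 and 11388 normalized counts in WT mice and between 7798 and 12671 in TG mice (medians 9507 and 9292). The difference was 0.02 (SE 0.080, adjusted p = 0.838) and its sign differed between the batches, 0.25 in A and -0.08 in B, neither past the threshold, and it was 0.053 without both mice. Of the light intermediate chains, which link the heavy chain to adaptors, Dync1li2 was lower by a log2 fold change of -0.13 (adjusted p = 0.0165) and Dync1li1 gave 0.07 (adjusted p = 0.299). The call of Dync1li2 was lost without both TG T61340 and TG T60303 (-0.09, adjusted p = 0.0520), with no batch term (adjusted p = 0.148 in edgeR and 0.171 in DESeq2), with no filter on low counts (adjusted p = 0.0662) and with library size scaling (-0.05, adjusted p = 0.357).

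Dynein light chains bind the intermediate chains as dimers of the LC8 (Dynll), roadblock (Dynlrb) and Tctex (Dynlt) families, and LC8 also serves many proteins outside dynein. Of 10 genes in these families, 5 were called, 3 lower and 2 higher, a share near the 44.7% of all genes. Dynll2, the LC8 gene with by far the higher level (320 against 45.4 CPM per kilobase for Dynll1 in WT mice), had between 17478 and 21112 normalized counts in WT mice (median 18524). In TG mice it had between 12529 and 16631 (median 13734.5), below every WT mouse in all 10. The log2 fold change of Dynll2 (chr11:87979525-87987533, - strand) was -0.41 (SE 0.044, adjusted p = 6.13e-08), -0.38 in batch A, -0.42 in batch B and -0.40 without TG T61340 and TG T60303. A copy row of the same symbol, which may hold the same reads, gave -0.41 as well.

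Dynll1 was lower by a log2 fold change of -0.11 (adjusted p = 0.0412), and that call was lost when any of 12 single mice was left out, with adjusted p-values up to 0.0985. It was also lost with library size scaling (-0.037, adjusted p = 0.501), with no filter on low counts (adjusted p = 0.159) and in edgeR with no batch term (adjusted p = 0.0626). The summed LC8 level was 365 ± 22.5 CPM per kilobase in WT mice (SD, n = 11) and 281 ± 24.3 in TG mice (SD, n = 10), and all 10 TG mice were below every WT mouse. Dynlt3, a Tctex light chain, had between 2071 and 2482 normalized counts in WT mice (median 2420) and between 1629 and 2095 in TG mice (median 1864), and 9 TG mice were below the WT range. Its log2 fold change was -0.38 (SE 0.045, adjusted p = 2.57e-07), -0.48 in batch A, where it passed the threshold alone (adjusted p = 0.0106), -0.33 in batch B and -0.35 without both mice.

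The other Tctex genes were higher or did not pass. Dynlt1b had between 125 and 215 normalized counts in WT mice (median 162) and between 166 and 277 in TG mice (median 211), with 4 TG mice above every WT mouse (log2 fold change 0.34, SE 0.089, adjusted p = 0.00319), and the value was 0.31 without TG T61340 and TG T60303. Dynlt1f had between 71.3 and 116 normalized counts in WT mice and between 81.0 and 161 in TG mice, with medians of 89.2 and 114. Its log2 fold change was 0.34 (SE 0.12, adjusted p = 0.0209), and the call was lost without TG T60303 (0.28, adjusted p = 0.0619) and without both mice (0.28, adjusted p = 0.0901). These genes are near-identical copies, so their counts are uncertain one by one: of all 100-base windows in their longest coding transcripts, 82.0% for Dynlt1b, 85.1% for Dynlt1f, 61.2% for Dynlt1c and 41.3% for Dynlt1a also occur in another gene of the family. Dynlt1a, Dynlt1c and the pseudogene row Dynlt1-ps1 gave log2 fold changes of 0.15, 0.32 and 0.21, none past the threshold. No 100-base window is shared among Kif5a, Kif5b and Kif5c, among the Klc genes, or between Dync1i1 and Dync1i2 or Dynll1 and Dynll2. Dynlrb1 gave -0.09 (adjusted p = 0.185), and Dynlrb2, a light chain of cilia at a mean of 17.2 normalized counts, gave -0.42 (SE 0.31, adjusted p = 0.286). Its sign differed between the batches, -1.77 in A (adjusted p = 0.0448) and 0.09 in B (adjusted p = 0.834), and the test of that difference gave an unadjusted p of 0.00452 (adjusted p = 0.853, edgeR). Markers of ependymal cells and choroid plexus split in the same way, but Dynlrb2 is itself among the ependymal markers. All 9, Dynlrb2 included, were below 0 in batch A (among them Foxj1 at -0.61 and Kcnj13 at -1.69) and above 0 in batch B (0.22 and 0.55). Apart from Dynlrb2, none passed the threshold in either batch. The part of such cells in the value of Dynlrb2 was not tested.

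Dynactin, which tethers dynein to adaptors and microtubules, had 2 of its 6 numbered subunits called and both were higher. Dctn6, a subunit of the pointed end (chr8:34090420-34108796, - strand), had between 922 and 1181 normalized counts in WT mice (median 1024) and between 1058 and 1581 in TG mice (median 1272). In 7 TG mice it was above every WT mouse. On the log2 scale this was 0.29 (SE 0.056, adjusted p = 1.85e-04), 0.38 in batch A, 0.25 in batch B and 0.23 without TG T61340 and TG T60303. Dctn4, also of the pointed end, was higher by 0.15 (adjusted p = 0.00296) with 9 TG mice above the WT range. Dctn1, the p150Glued subunit that holds the microtubule, had between 7011 and 8928 normalized counts in WT mice and between 7163 and 9609 in TG mice (medians 8178 and 8707). Its log2 fold change was 0.07 (SE 0.051, adjusted p = 0.281), and library size scaling alone called it higher (0.14, adjusted p = 0.0130), and it was 0.066 without both mice. Dctn2, Dctn3 and Dctn5 gave values between -0.11 and 0.05, none past the threshold.

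Kinesin-2 motors work as heterotrimers of Kif3a with Kif3b or Kif3c and the adaptor Kifap3, and as Kif17 homodimers. Of these 4 kinesins only Kif3c was called, with a log2 fold change of -0.19 (adjusted p = 3.97e-04) and 8 TG mice below the WT range, and 3205 of its 7406 exon bases overlap annotated antisense genes. Kif3a, Kif3b and Kif17 gave log2 fold changes of 0.00, 0.01 and -0.04.

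Kinesin-3 motors carry synaptic vesicle precursors and dense core vesicles, and none of 6 tested was called (edgeR, also 0 at an unadjusted p under 0.05 and 0 by DESeq2). Kif1a had between 30017 and 38485 normalized counts in WT mice and between 32207 and 38227 in TG mice (medians 33748 and 34249), so that all TG mice lay within the WT range. Its log2 fold change was 0.01 (SE 0.042, adjusted p = 0.867), and 0.010 without TG T61340 and TG T60303 (adjusted p = 0.878). Kif1b had between 17381 and 23453 normalized counts in WT mice and between 11503 and 22264 in TG mice (medians 18768 and 19028). The lowest was the library labelled TG T61340, and the log2 fold change of -0.05 (SE 0.082, adjusted p = 0.638) became 0.02 without it. The longest coding transcript was searched for 60 of the 61 tested motor genes, and of these only that of Kif1b holds an uninterrupted TG repeat of at least 12 bases, the kind of RNA sequence TDP-43 is known to bind, beside 7.6% of 14167 tested genes.
Kif1b 3′ UTR, chr4:149180084-149180099 (GRCm38) with flanks, repeat in capitals: taTGTGTGTGTGTGTGTGtctgtctgtctc
Kinesin-4 motors (Kif21a, Kif21b, Kif4, Kif7 and Kif27), which regulate microtubule growth or cilia, gave 0 of 5 calls in edgeR, 1 at an unadjusted p under 0.05 and 0 in DESeq2, with log2 fold changes between -0.16 and 0.15.

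Kinesins that act on microtubule ends or walk to the minus end gave 5 calls among 7 tested, where 44.7% of all genes were called. Of these, the calls of Kif18a, Kif19a and Kifc1 were each lost with some single mice left out, as given below. Kif2a, a kinesin-13 that takes microtubules apart and limits axon branching, had between 1162 and 1552 normalized counts in WT mice (median 1489) and between 828 and 1351 in TG mice (median 1139.5). In 7 TG mice it was below every WT mouse. The log2 fold change was -0.35 (SE 0.050, adjusted p = 4.00e-06), -0.39 in batch A (adjusted p = 0.0487), -0.32 in batch B and -0.30 without TG T61340 and TG T60303, and 1229 of its 6393 exon bases overlap Dimt1 on the other strand. Kifc2, a kinesin-14 expressed mainly in neurons, had between 8977 and 14362 normalized counts in WT mice (median 11139) and between 7847 and 12051 in TG mice (median 8221). It was below the WT range in 7 TG mice and was highest in the library labelled TG T61340. The log2 fold change of Kifc2 was -0.35 (SE 0.073, adjusted p = 4.17e-04), -0.25 in batch A, -0.39 in batch B and -0.41 without both mice.

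Kif19a, a kinesin-8 that limits the length of cilia, had between 40.4 and 71.0 normalized counts in WT mice and between 49.9 and 88.9 in TG mice (medians 61.1 and 70.7). Its log2 fold change was 0.29 (SE 0.11, adjusted p = 0.0393), a call lost when any of 9 single mice was left out (adjusted p up to 0.0816), with no filter (adjusted p = 0.0581) and without both TG T61340 and TG T60303 (0.27, adjusted p = 0.104). Dync2li1, the light intermediate chain of the dynein of cilia, had between 231 and 325 normalized counts in WT mice (median 297) and between 164 and 272 in TG mice (median 247), with 4 TG mice below the WT range. The log2 fold change was -0.31 (SE 0.061, adjusted p = 2.17e-04) and -0.33 without both mice. Its heavy chain Dync2h1 gave -0.07 (adjusted p = 0.519). In all, 2 of 10 ciliary motors were called. Markers of ependymal cells, which carry motile cilia, summed to 8.59 to 21.3 CPM in WT and 7.75 to 17.7 in TG mice with 0 of 5 called, and choroid plexus markers to 15.1 to 2166 and 25.4 to 1111 with 0 of 4 called (edgeR, also 0 at an unadjusted p under 0.05 and 0 by DESeq2). Dynlrb2 is itself one of these ependymal markers, and the part of such cells in the result for ciliary motors was not tested.

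Mitotic kinesins were near the limit of detection in this adult tissue, and 8 of 12 were tested. Kif20b, which acts in cytokinesis, had between 7.30 and 16.5 normalized counts in WT mice (median 9.57) and between 17.7 and 33.1 in TG mice (median 20.1). All 10 TG mice were above every WT mouse (log2 fold change 0.96, SE 0.16, adjusted p = 2.28e-05), and the value was 0.79 without TG T61340 and TG T60303. Kif18a rose from a median of 17.7 to 22.8 (log2 fold change 0.48, adjusted p = 0.0242), a call lost without TG T_70252 (0.40, adjusted p = 0.0544). Kifc1 was lower with a log2 fold change of -0.37 (adjusted p = 0.0284), a call lost without any of 4 single mice (adjusted p up to 0.0570), in DESeq2 (adjusted p = 0.0774), with library size scaling (adjusted p = 0.0791) and with no filter (adjusted p = 0.103). In edgeR, 4 of 6 cycling markers were tested and 2 called, Mki67 and Top2a, higher by 0.93 (adjusted p = 5.67e-04) and 0.75 (adjusted p = 6.36e-04). Ccna2 gave -0.22 (adjusted p = 0.255) and Birc5 0.12 (adjusted p = 0.732), and Cdk1 and Ccnb1 did not pass edgeR's filter. DESeq2 called Cdk1 higher by 1.20 (adjusted p = 0.00179) and gave 0.68 for Ccnb1 (adjusted p = 0.127). The 6 markers summed to 3.64 to 6.12 CPM in WT and 4.87 to 8.50 in TG mice. Their part in the result for the mitotic kinesins was not tested.

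Ratios between paralogs that fill the same place in a motor were compared within each mouse, so that they do not depend on how libraries are scaled. They use the same counts as the fold changes above and are another view of them. The test was an exact two-sided permutation of genotype within batch over 120120 arrangements, for 10 pairs with Benjamini-Hochberg adjustment over the pairs, and 6 pairs passed. The log2 ratio of Klc1 to Klc2 was 1.25 ± 0.139 in WT (SD, n = 11) and 0.46 ± 0.153 in TG mice (SD, n = 10), and the difference over batches was -0.80 (exact p = 8.33e-06, the smallest these permutations can give, adjusted p = 4.16e-05). That ratio was lower in 10 of 10 TG mice than in any WT mouse.

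Kif5a to Kif5c was 1.83 ± 0.111 in WT and 2.50 ± 0.278 in TG mice, a difference of 0.67 (exact p = 8.33e-06, adjusted p = 4.16e-05), and all 10 TG mice were above every WT mouse. Kif5a to Kif5b was 3.76 ± 0.149 and 3.30 ± 0.306, a difference of -0.44 (exact p = 3.58e-04, adjusted p = 7.16e-04). In 9 TG mice it was below the WT range, and in the library labelled TG T61340 it was above it. The ratio of Dync1i1 to Dync1i2 differed by -0.55 (exact p = 1.67e-05, adjusted p = 4.16e-05) with 9 TG mice below the WT range, and Dynll1 to Dynll2 by 0.29 (exact p = 1.67e-05, adjusted p = 4.16e-05) with 9 above it. Dync1li1 to Dync1li2 differed by 0.20 (exact p = 0.0120, adjusted p = 0.0200) with 6 TG mice above the WT range. Without TG T61340 and TG T60303 the same 6 pairs passed (exact permutation over 17160 arrangements), with differences of -0.79 for Klc1 to Klc2, 0.56 for Kif5a to Kif5c and -0.53 for Kif5a to Kif5b (adjusted p = 2.33e-04 for each). Dync1i1 to Dync1i2 was then -0.54, Dynll1 to Dynll2 0.29 and Dync1li1 to Dync1li2 0.19. Over all mice, the differences of Kif1a to Kif1b (0.08, exact p = 0.409), Kif3a to Kif3b (-0.01, exact p = 0.672), Kif21a to Kif21b (-0.11, exact p = 0.161) and Dynlrb1 to Dynlrb2 (0.34, exact p = 0.347) did not pass.

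**Figure D3:**
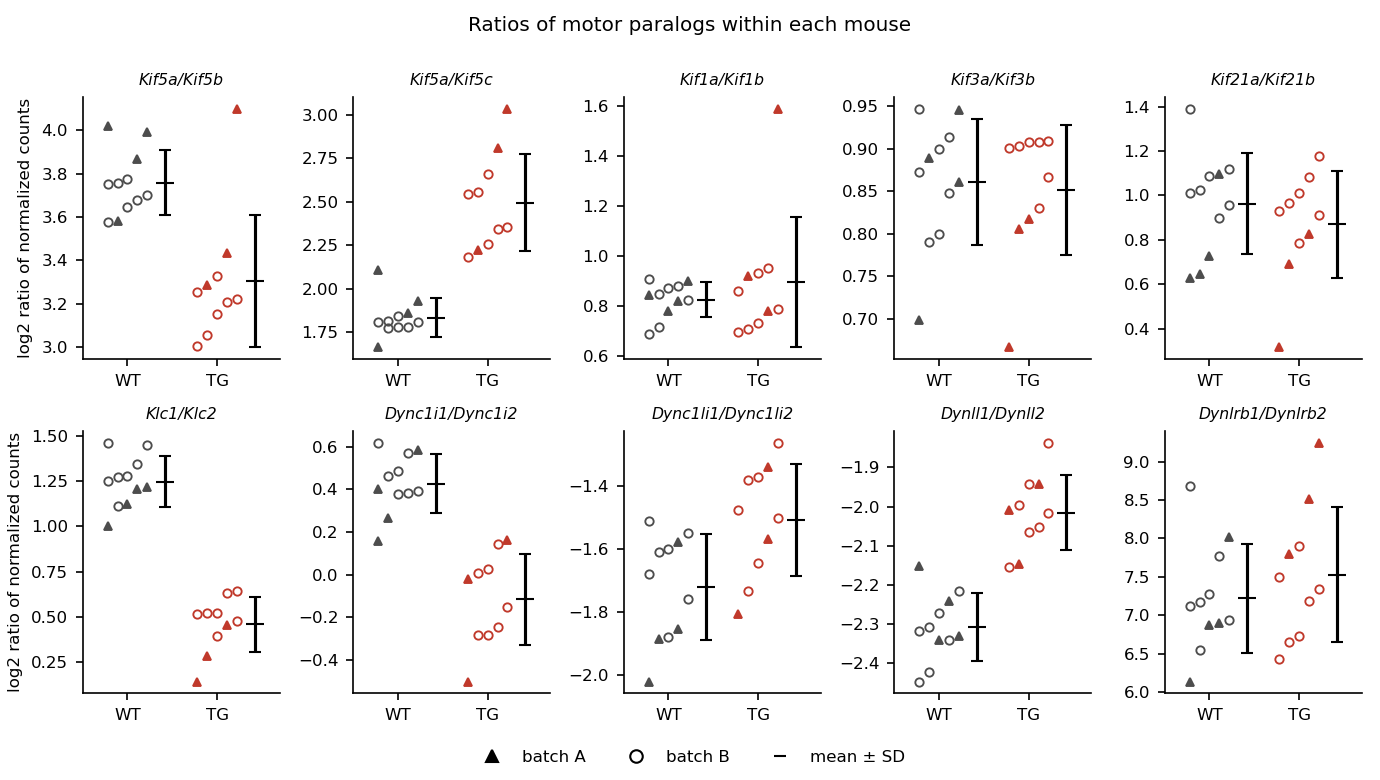
Log2 ratio of normalized counts of 10 pairs of motor paralogs (y axis, log2 scale, a different range in each panel) in each WT (grey) and TG (red) mouse, with triangles for batch A, circles for batch B and the mean with its SD in black. Klc1/Klc2 and Kif5a/Kif5c separate the genotypes completely, and the outlying triangle in Kif5a/Kif5b at 4.10 and in Kif1a/Kif1b at 1.59 is the library labelled TG T61340.

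Both batches gave the same direction for all 22 called members. These members were called from a fit to the mice of both batches, which favours a shared direction, so this is no replication. Tested alone, batch A with 3 TG and 4 WT mice called 6 motor genes, or 9.84% beside 11.8% of all genes tested there, 5 of them among these 22 and the other Dynlrb2. Batch B with 7 and 7 called 23, or 37.7% beside 39.1% of all genes, 19 of them among the 22 and the others Dctn2, Dynlt1c, Kif11 and Kif9. The effect of genotype differed between the batches for 0 of 61 motor genes by edgeR's interaction test and for 0 by DESeq2, with 6 and 5 at an unadjusted p under 0.05. The former 6 were Dynlrb2, Dynlt3, Kif11, Kif13a, Kif20b and Kif6, or 9.84% of the 61, beside 5.64% of all genes. The latter 5 were of 67 members tested by DESeq2, where the share of all genes was 3.38%.

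**Figure D4:**
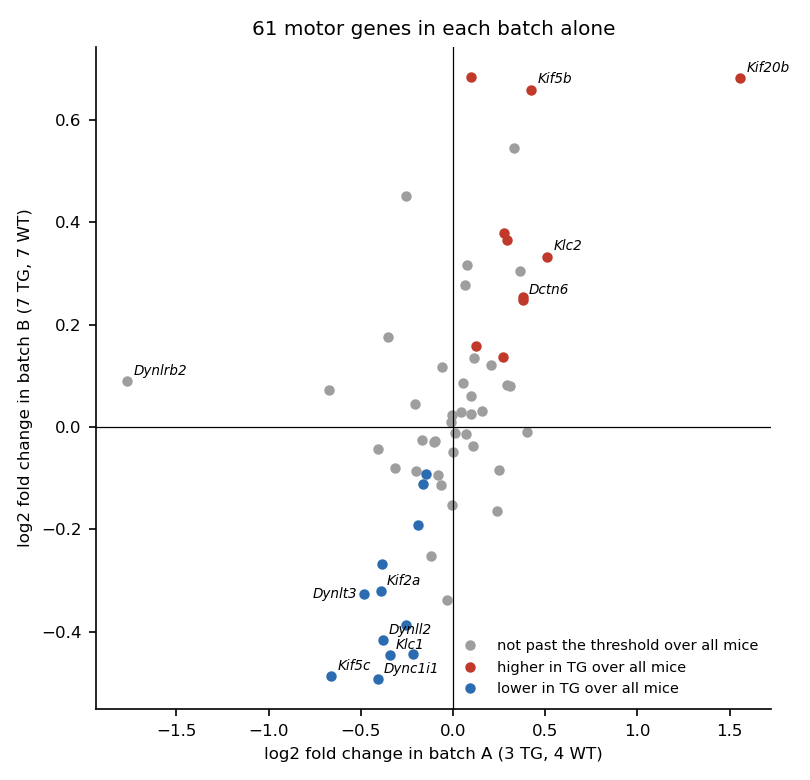
Log2 fold change of TG from WT for each of 61 motor genes in batch A alone (x axis, 3 TG and 4 WT mice) and batch B alone (y axis, 7 TG and 7 WT mice), colored by the call over all mice. The 22 called genes lie in the quadrants where both batches have the same sign, which a call over all mice favours.

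The proteins that work with the motors were read from the same fit, as 58 tested genes of 61 listed, of which 39 were called, 14 higher and 25 lower, or 67.2% beside 44.7% of all genes. By direction, 24.1% were higher and 43.1% lower, beside 23% and 21.7% of all genes. Dynactin has further subunits whose names do not begin with Dctn. Actr1a, the main actin-related protein of its filament, had between 3730 and 4615 normalized counts in WT mice and between 4730 and 6786 in TG mice, and all 10 TG mice were above every WT mouse (log2 fold change 0.40, SE 0.054, adjusted p = 1.76e-06). Actr1b and the capping protein Capza1 were higher too, by 0.30 and 0.27. Actr10, which stands at the pointed end, and Capza2 were lower, by -0.30 and -0.32. Among dynein regulators and adaptors 5 were higher and 3 lower. Hook2 was highest at 0.52 (adjusted p = 6.06e-06), and Ndel1, a partner of Lis1, was higher in all 10 TG mice than in any WT mouse (0.48, SE 0.039, adjusted p = 6.04e-10). Pafah1b1, which encodes Lis1, was lower by -0.35 (SE 0.055, adjusted p = 1.73e-05), and Hap1 by -0.54 (adjusted p = 0.00800). In batch A alone Hap1 was at -0.99 (adjusted p = 0.00836) and in batch B alone at -0.32, past the threshold no longer (adjusted p = 0.161), and the test of that difference gave an unadjusted p of 0.0321 (adjusted p = 0.855, edgeR). All 4 striatal markers were lower in batch A than in batch B too, among them Drd1 at -1.21 and -0.42 and Rgs9 at -0.89 and -0.13, none past the threshold in either batch, and their part in the result for Hap1 was not tested.

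Kinesin adaptors and regulators were lower in 10 and higher in 5 of 20 tested, where 21.7% of all genes were lower and 23% higher. Kifap3, the cargo-binding subunit of kinesin-2, had between 4460 and 6080 normalized counts in WT mice (median 5608) and between 2478 and 4034 in TG mice (median 3491), below every WT mouse in all 10. Its log2 fold change of -0.69 (SE 0.053, adjusted p = 2.70e-10) stood beside 0.00, 0.01 and -0.19 for its partners Kif3a, Kif3b and Kif3c, the last of which was also called. Of the genes that couple kinesin-1 to mitochondria, Rhot1, which encodes Miro1, was lower by -0.43 (adjusted p = 2.74e-09) in all 10 TG mice, Rhot2 (Miro2) was lower by -0.11 (adjusted p = 0.0364), Trak2 was higher by 0.24 (adjusted p = 0.00647) and Trak1 gave -0.10 (adjusted p = 0.0508, and 0.0352 in DESeq2). Arl8a, a lysosomal GTPase that recruits kinesins, was higher by 0.35 (adjusted p = 3.05e-05). Of the tubulins and microtubule-associated proteins that form the track, 10 of 17 were lower and 1, Map6, was higher (0.14, adjusted p = 0.00567). The largest fall was that of the tubulin Tuba4a (-0.56, SE 0.063, adjusted p = 9.96e-08).

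**Figure D5:**
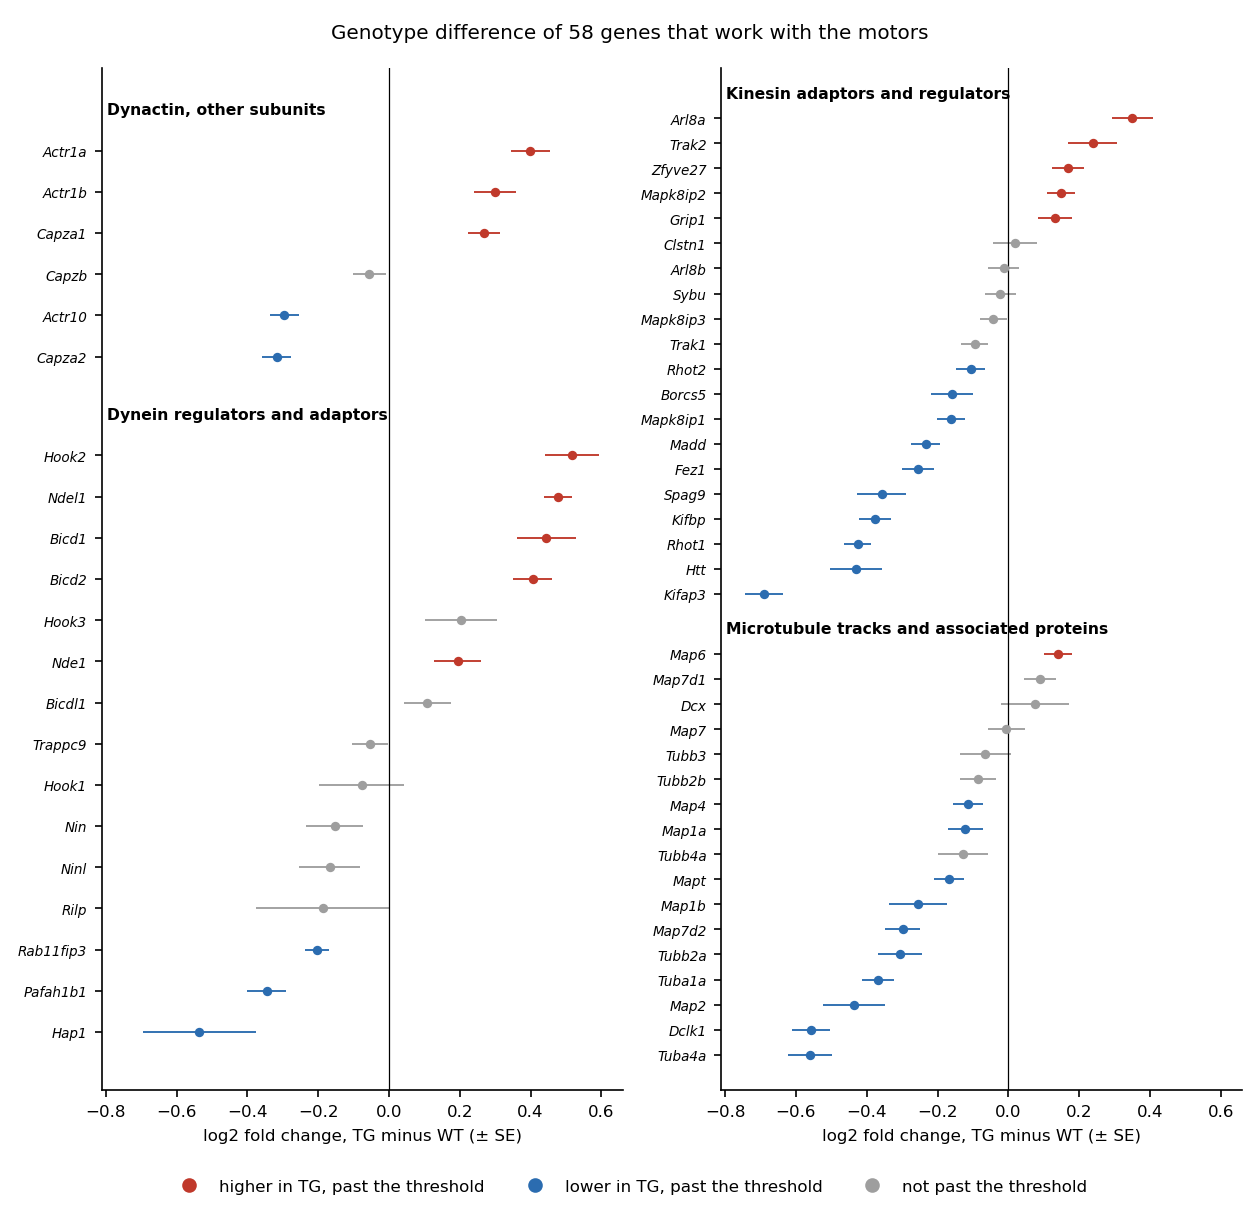
Log2 fold change of TG from WT mice (x axis, log2 scale, bars for the standard error) for 58 genes that encode other dynactin subunits, adaptors and regulators of the motors, and microtubule proteins. Kifap3 lies farthest to the left at -0.69 and Hook2 farthest to the right at 0.52.

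In bulk tissue, fewer cells of a type and less RNA per cell cannot be told apart. Of 7 neuron markers, 4 (Snap25, Syt1, Stmn2 and Gad1) were lower in TG mice and Rbfox3, Tubb3 and Slc17a7 did not pass. The 7 summed to 5488 to 6877 CPM in WT and 4115 to 5498 in TG mice. All 5 astrocyte markers were lower (3911 to 5208 against 2882 to 4174 CPM), 4 of 6 microglia markers were higher and P2ry12 lower (314 to 357 against 329 to 448), 0 of 6 oligodendrocyte markers were called (4102 to 6992 against 3913 to 7056), and 1 of 4 endothelial markers was lower. Of the striatal markers 1 of 4, Drd1, was lower, with sums of 163 to 820 and 151 to 673, and dentate markers gave 0 of 2. The oligodendrocyte and dentate lists also gave 0 at an unadjusted p under 0.05 in edgeR and 0 in DESeq2. No marker was at 0 in a whole group, and the part of these cell types in the results for the motor genes was not tested. Whether reads were counted by strand is not given in the sources used here. Exons of 20 motor genes overlap a gene on the other strand, among them Kif5b (chr18:6201002-6242174, 324 of 7981 bases), Klc2 (439 of 4134), Kifc2 (163 of 3932), Dctn6 (337 of 2853) and Klc1 (12 of 4070). If strand was not used, reads of both genes could not be told apart there.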

How the data were processed

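Bulk RNAseq counts of neocortex from 21 mice were analyzed. The values the authors deposited are raw read counts (whole numbers, one row per gene symbol) from 100-base paired-end mRNA libraries aligned to GRCm38. The submitters' processing notes name HISAT, HISAT2, Bowtie, Bowtie2 and RSEM without versions or roles, and strand use and annotation are not given in the sources used here. All 48474 rows were kept, including 2553 copy rows with 4.11% of counts. In R 4.3.3, edgeR 4.0.16 was run with its expression filter (10 counts, 15 in total), TMM factors, and a quasi-likelihood model of genotype plus batch, and p-values of the 18248 genes left were adjusted by Benjamini-Hochberg. Standard errors came from the fold change and the F statistic. Ratios used log2(normalized count + 0.5). Exon lengths and positions came from GENCODE M21 and promoters from RefSeq.

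The 68 members, the gene lists and the tests were chosen with earlier results of these data known. Named in full were called members with a log2 fold change of at least 0.25 and a mean of at least 50, plus Kif5a, Kif1a, Kif1b, Dync1h1 and Dctn1. The other called members were named after their values were seen, as were pathway genes beyond the largest change in each direction and 6 fixed ones. Alternatives were DESeq2 1.42.0 with and without batch, edgeR without batch, other scalings and filters, each batch alone, Xist as a covariate, copy rows left out and each mouse left out. Leaving out TG T61340 and TG T60303 together was added after seeing the data. The procedures were tested on simulated data. Among 100 pairs of mice within a group, the counts differed by at least 3.85 times the sampling variance, so every library counted as its own replicate. Without molecular identifiers, the floor of 3 counts covers counting error only. The mice are separate animals, and p-values measure the spread between them. One item of a marker list is not reported here.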

Additional observations from a re-analysis of the deposited data

Results flagged for a closer look

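Each of 84 values (61 motor genes, 10 paralog ratios and 13 pathway genes) was searched for a mouse that stands apart among the 10 TG mice, by the gap to the nearest other mouse as a share of the whole range against Dixon's 95% critical value. In 14 cases the gap was larger, where chance gives about 1 in 20, or 4.2. That search pooled both batches, and 13 of the 14 mice that stood apart were from batch A, which held 3 of the 10 TG mice. Of the 9 motor genes concerned, the mouse also lay outside all other mice of batch A for 6, namely Dctn3, Dync1i1, Kif1b, Kif20b, Kif3c and Kif5c, and within their range for Dctn4, Kif1c and Kifc2. For Kif1b it had 11503 normalized counts, beside 18812 and 22264 in the other TG mice and 17466 to 20774 in the WT mice of batch A. For Kif1c it had 3641, beside 2962 to 3760 in the WT mice of batch A and 2449 to 2870 in those of batch B. The library labelled TG T61340 was the mouse that stood apart in 8 and TG T60303 in 5. TG T61340 was highest for Dctn3 (0.598), Kifc2 (0.486), Arl8a (0.529), Kif5a/Kif5b (0.607) and Kif1a/Kif1b (0.714), and lowest for Dctn4 (0.530), Kif1b (0.502) and Kif5c (0.525). TG T60303 was highest for Kif1c (0.468) and Kif20b (0.595), and lowest for Dync1i1 (0.50), Kif3c (0.480) and Kif3a/Kif3b (0.572). TG T_70252 was highest for Kif18a (0.480). In summed markers, TG T60303 was the lowest TG mouse for neuron (4115 CPM) and striatal lists (151) and the highest for microglia (448) and cycling lists (8.50). TG T61340 was lowest for astrocyte (2882), dentate (9.31) and ependymal lists (7.75) and highest for neuron (5498) and neocortex lists (2406). For the remaining lists neither was lowest or highest. The part of these cells in the flagged values was not tested.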

How the results depend on the processing

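Between 18 and 28 motor genes were called under the alternatives that used all 21 mice, and between 19 and 26 with 1 mouse left out. Batch A alone, with 3 TG and 4 WT mice, called 6 (2 higher, 4 lower), 8 pathway genes and 0 of 10 ratios, where no permutation of 7 mice can give less than 0.0286, and its Tardbp value was 0.26 (adjusted p = 0.191). Library size scaling called 19 motor genes higher. With 1 mouse left out, calls were lost for Dynll1 (-0.14 to -0.09; TG T60303, T61342, T_69531, T_70267 and WT T61331, T61333, T61334, T61345, T_69527, T_69532, T_70262, T_70264), Kif19a (0.25 to 0.34; TG T60303, T61340, T_69531, T_70267 and WT T61333, T61345, T_69532, T_70256, T_70264), Kifc1 (-0.44 to -0.32; TG T_69526, T_69531, T_70267 and WT T_70262), Dynlt1f (TG T60303) and Kif18a (TG T_70252). Among the values recomputed under the alternatives (named motor genes, paralog ratios and named pathway genes), signs turned for 6 that passed in no setting. Batch B alone gave -0.084 for Dync1h1, -0.036 for Kif1a, -0.010 for Kif1a/Kif1b, 0.022 for Kif3a/Kif3b and -0.25 for Dynlrb1/Dynlrb2. Kif1b was 0.027 with library size scaling and 0.029 without TG T61340 and TG T60303, where Kif1a/Kif1b was -0.019, Kif3a/Kif3b 0.010 and Dynlrb1/Dynlrb2 -0.054. With 1 mouse left out, Dync1h1 ran from -0.049 to 0.052, Kif1a from -0.0075 to 0.031, Kif1b from -0.10 to 0.017, Kif1a/Kif1b from -0.0032 to 0.11 and Kif3a/Kif3b from -0.025 to 0.0058. The cause was not tested. No paired analysis was possible because each mouse has its own number and the groups share none. Depth limits the mitotic kinesins, which had means under 50 normalized counts.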
